A study of Mus musculus with 8 samples.

Results

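Perivascular macrophages were taken from single-cell RNA profiles of mouse brain as the barcodes in which Pf4, Mrc1, F13a1 and Ms4a7 summed to at least 20 UMIs (unique molecular identifiers, 1 per captured transcript) per 10000. In the same barcodes the microglial genes P2ry12 and Tmem119 had to sum to under 10, the endothelial genes Cldn5, Flt1 and Pecam1 to under 20, and the neutrophil genes S100a8 and S100a9 to under 50. The rule found 619 macrophages among 50254 cells with 500 or more genes detected and less than 15% of UMIs from mitochondrial genes. The study asked how laminins of the vascular basement membrane shape brain microvessels. Its tissue was labelled brain cortical plate, from perfused mice 8 weeks of age, with the brains of 3 mice pooled for each of 4 groups. One knockout (KO) lacked Lama4 in all cells (Lama4-/-). In the other (Tek-Cre:Lama5-/-), Lama5 was deleted by a Cre recombinase under the Tek promoter, which is active in the endothelial lineage and is known to act in blood-forming cells as well. Each knockout had its own wild-type (WT) control, and each group had 2 samples. Those of the Lama4 KO held identical counts and were used as 1 library, which left 7 libraries. Libraries of a group came from the same pool of brains, so p-values measured the spread between libraries of a pool and not between mice.

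Perivascular macrophages lie in the space around penetrating vessels, between the vascular basement membrane and the glial limit, and belong to the border-associated macrophages that also populate the meninges and choroid plexus. They are known for scavenger receptors, for uptake of material from the perivascular fluid, and for a subset rich in MHC class II, the molecules that present antigen to helper T cells. A dissociated suspension does not keep their position, so macrophages of the meninges or choroid plexus stroma that met the rule could not be told apart from those around vessels.

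The 4 genes of the rule describe how the cells were chosen and were not tested as markers. Pf4, a chemokine of platelets and border macrophages, stood at 4742, 4037 and 3759 UMIs per 1000000 (CPM) in the 2 WT libraries and the KO library of the Lama4 experiment, at 3278 and 3323 in the WT of the Lama5 experiment and at 2611 and 2559 in the Lama5 KO. Mrc1, the mannose receptor CD206, ranged from 2521 to 3604 CPM and had at least 1 UMI in 94.2% to 98.5% of the cells of each library. The sum of the 4 genes had medians of 104, 97.5 and 102 per 10000 in the Lama4 experiment, 88.7 and 92.9 in the WT of Lama5, and 68.5 and 69.2 in the Lama5 KO. Its median was thus lowest in both Lama5 KO libraries. Few cells lay near the threshold. Libraries held 0 to 5 members at 20 to 30 per 10000, and 2 to 11 cells at 10 to 20 that met the other limits. Lyz2, the lysozyme of macrophages and the fifth marker, was outside the rule and was found in every macrophage of 6 libraries and in 97.0% of those of the second Lama5 KO library.

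Markers outside the rule largely fitted the label. All 12 border macrophage genes fixed as a list were detected, with a summed level of 6187 to 9775 CPM. Cd163, a scavenger receptor for haemoglobin complexes, was detected in 38.6% to 71.9% of macrophages and in at most 0.241% of endothelial cells. Lyve1, a hyaluronan receptor, was detected in 40.3% to 75.5% of them and in at most 0.361% of endothelial cells. Median depth was 2698 to 5845 UMIs for macrophages and 2782 to 6116 for endothelial cells. Of 9 genes of monocytes and dendritic cells, Itgax, Clec9a and Xcr1 were at 0 in all members, and the summed level of the list was 16.9 to 450 CPM. Its highest values were in the second WT library of each experiment. In that of Lama4, 150 UMIs of the monocyte gene Ly6c2 came from 3 cells. Cd209a, also on the list, was carried by more cells. In the Lama4 experiment it had 194 UMIs in 48 of 265 WT macrophages and 71 UMIs in 21 of 98 KO macrophages. These counts leave out the MHC class II-rich cells described below. Of 6 T and B cell genes, Cd3e, Cd3g, Trbc2 and Cd79a were at 0, and the list summed to 11.3 to 44.8 CPM. Of 5 neutrophil genes, Ly6g was at 0, and the list summed to 0 to 24.4 CPM. Lists of other cell types had higher sums, with 880 to 1119 CPM for 11 microglial genes and 15.5 to 926 CPM for 5 mural genes. No barcode of a member was shared between any of the 21 pairs of libraries.

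The libraries differed in depth. Members numbered 135 and 139 in the WT of Lama4, 114 in the Lama4 KO, 55 and 52 in the WT of Lama5, and 57 and 67 in the Lama5 KO. They held 637939 to 862041 UMIs in a library of the Lama4 experiment and 174233 to 201039 in one of the Lama5 experiment, with 2000 to 2145 and 1254 to 1509 genes per cell at the median. The targeted genes checked the labels only in other cells. In endothelial cells Lama4 had 1047 and 904 UMIs in its WT against 1 in the KO, and Lama5 was detected in 16.4% and 16.1% of WT cells against 8.97% and 9.20% in its KO. In the macrophages themselves Lama4 had 1, 1 and 0 UMIs in the Lama4 experiment and Lama5 had 0 in all 4 libraries of its experiment, so neither deletion could be read in them. One library stood apart: in the Lama4 KO, Ttr, the main transcript of choroid plexus epithelium, was detected in 99.1% of macrophages at 8121 CPM. Of its 5181 UMIs 4423 were in 1 macrophage, and without that cell the level was 1234 CPM, beside 1414 CPM in endothelial cells and 1453 CPM in microglia. In the WT of Lama4 it stood at 167 and 114 CPM in macrophages.

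The genes that set the macrophages apart from microglia within every library included many of uptake and lectin recognition. No test applies, since the rule compares the same cells. The 15 genes with the largest lowest-library ratio began with Cd163, at 338 to 594 CPM in macrophages and at most 0.130 in microglia, and Lyve1, at 423 to 897 CPM against at most 0.741. The C-type lectins Clec10a, Clec4n, Cd209f and Mgl2 followed, with lowest-library log2 ratios of 7.93, 7.88, 7.74 and 6.90. Folr2, a folate receptor, had 6.71, Cd36, a receptor for oxidised lipid, 6.63, and Igf1, a growth factor, 6.20. Ifi207, an interferon-inducible gene, showed the widest range of the 15 among libraries, from 306 to 1432 CPM. In the other direction, Sall1, the transcription factor that marks microglia, stood at 0 to 5.74 CPM in macrophages and at 106 to 197 in microglia. Sparc, a matrix-binding glycoprotein, stood at 0 to 95.6 CPM against 1710 to 3589, and Selplg, a ligand of selectins, at 51.7 to 90.5 against 1058 to 2380.

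**Figure D1:**
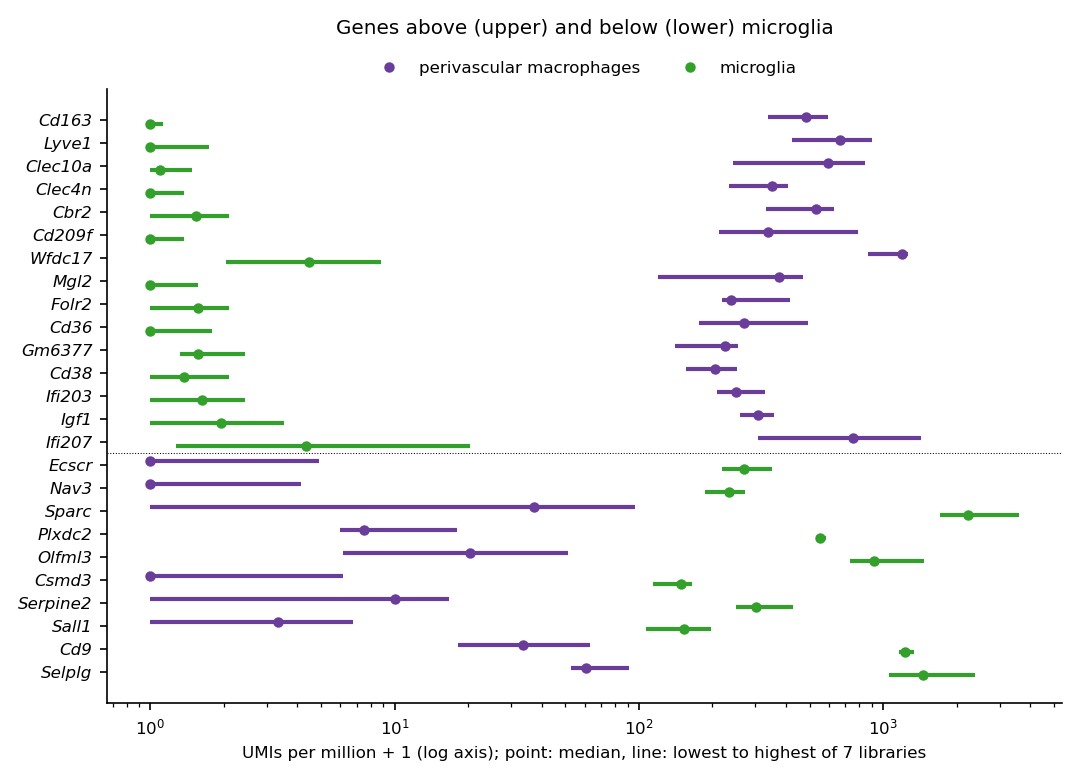
Levels of 25 genes in perivascular macrophages (purple) and microglia (green) as CPM plus 1 on a log axis, each point the median and each line the range over the 7 libraries. The 15 upper genes, led by Cd163 and Lyve1, lie above microglia in every library, and the 10 lower genes, among them Sall1 and Sparc, below.

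The first comparison asked whether the number of perivascular macrophages differed after loss of Lama5. They were 0.643% (exact binomial 95% interval 0.485% to 0.836%) and 0.610% (0.456% to 0.799%) of kept cells in the WT libraries, and 0.684% (0.518% to 0.885%) and 0.783% (0.608% to 0.994%) in the KO libraries. Both KO shares were above both WT shares, by 0.107 percentage points on average. Against microglia the order was the opposite: macrophages were 8.58% and 8.55% of macrophages plus microglia in WT libraries and 5.35% and 6.58% in KO libraries, a difference of -2.60 points. The count of microglia was 586 and 556 in WT libraries and 1008 and 952 in KO libraries. With 2 libraries a group the two-sided exact permutation test cannot go below p = 0.333, which is the value of each difference. The difference was 0.0574 points without KO library 2 and 0.0535 points with stricter limits on the cells. In the Lama4 experiment the shares of kept cells were 2.41% (2.03% to 2.85%) and 2.61% (2.20% to 3.07%) in WT libraries and 2.13% (1.76% to 2.55%) in the KO library. These intervals overlapped and no test was possible with 1 KO library. The difference was -0.381 points, and -0.908 with mixed droplets left out. Fewer cells of the type and fewer cells surviving dissociation cannot be told apart.

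The second comparison asked which genes of the macrophages differed between the Lama5 KO and its WT. The chemokine genes Cxcl1, Cxcl2 and Ccl4 were higher in the KO. Lower were 4 of 13 listed immediate-early and heat shock genes, 4 MHC class II genes and the scavenger receptor Stab1. Of 3012 genes tested with the quasi-likelihood test of edgeR on summed counts, 33 (1.1%) had an adjusted p under 0.05. Of these, 17 were higher (0.564%) and 16 lower (0.531%), and the libraries of the groups did not overlap for any of them. The median log2 fold change over all genes was -0.01. A further tool, DESeq2, called 17 of the same genes. Of the 29 genes followed by the rule for named genes, 10 stayed past the threshold under every alternative tried: Cxcl1, Txnrd1, Gdf15, Ccl4, Gm42418 and Ttr among those higher, and Btg2, Stab1, Hspa1b and Hbb-bs among those lower.

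Cxcl1 and Cxcl2 encode ligands of the neutrophil receptor CXCR2. Cxcl1 stood at 9.95 and 28.7 CPM in the WT libraries and at 147 and 243 in the KO libraries. These levels rest on few cells: 2 and 5 UMIs in 1 and 2 WT macrophages, and 26 and 47 UMIs in 4 of 57 and 7 of 67 KO macrophages. On the log2 scale the difference was 3.39 (SE 0.464, edgeR adjusted p 4.64e-06). Endothelial cells, which also contain the transcript, had a UMI in 7.25% and 7.18% of WT and 9.53% and 8.26% of KO cells. Cxcl2 was carried by many more macrophages, 22 of 55 and 18 of 52 in WT libraries against 26 of 57 and 30 of 67 in KO libraries. It rose from 2646 and 2543 CPM to 3717 and 3319, or by 0.49 on the log2 scale (SE 0.106, edgeR adjusted p 0.00545), and its call was lost without KO library 1 (0.40, edgeR adjusted p 0.231) and without WT library 2 (0.47, 0.0505). Ccl4, a CC chemokine that attracts monocytes and T cells, rose from 1035 and 1245 to 2324 and 2508 CPM (log2 1.14, SE 0.127, edgeR adjusted p 5.93e-08). Microglia held Ccl4 at 5316 to 5717 CPM, over 3 times the macrophage mean, so RNA released from microglia could add to these counts, and its part in the result was not tested. In all, 12 of the 13 listed chemokine genes were measured, 3 were called higher and 0 lower, with a median log2 fold change of 0.37. The other 9 did not pass, among them the CCR2 ligands Ccl2 (1686 and 1854 CPM in the WT, 1624 and 1913 in the KO) and Ccl7 (1507 and 1205, then 925 and 1029, log2 -0.43, edgeR adjusted p 0.230).

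The promoters of Cxcl1, Cxcl2, Cxcl10 and Nfkbia are shown because they carry letters of the type bound by NF-kB, a transcription factor that drives chemokine genes in macrophages, and 3 of these genes return below as ones whose Lama5 KO effect differed from that in microglia. The letters searched were GGGA and TTCC, or GGG and TTTCC, in each case with any 2 bases between them, on both strands, where matches can overlap, in the 250 bases before the RefSeq start (GRCm38.p6). Either was present in 2.26% of 32851 promoters. Of 11 genes looked up (Cxcl1 and the 10 genes of the difference test below), 7 had an entry and 5 of these held a match, Tnfaip3 being the other. Each stretch lies before its gene's start, outside the gene's annotated span, and reads 5′ to 3′ on the strand of its gene, with matched bases in capitals.
Cxcl1 (chr5:90891131-90891209, plus strand): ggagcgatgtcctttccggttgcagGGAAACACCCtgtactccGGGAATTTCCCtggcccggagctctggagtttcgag
Cxcl2 (chr5:90903777-90903855, plus strand): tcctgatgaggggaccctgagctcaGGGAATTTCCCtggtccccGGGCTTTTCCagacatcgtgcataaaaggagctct
Cxcl10 (chr5:92349014-92349073, minus strand): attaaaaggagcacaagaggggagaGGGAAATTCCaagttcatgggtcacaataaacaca
Nfkbia (chr12:55492648-55492701, minus strand): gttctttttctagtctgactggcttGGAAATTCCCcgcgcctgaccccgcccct
A match is a description of the letters. The genes were chosen with their values known, and no binding was measured.

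The other rises included Gdf15, Txnrd1 and Map2k3. Gdf15, a cytokine released by stressed cells, stood at 109 and 91.8 CPM in WT libraries and 344 and 305 in KO libraries, carried by 6 of 55 and 7 of 52 macrophages and then by 17 of 57 and 19 of 67 (log2 1.72, edgeR adjusted p 1.02e-04). Txnrd1, the cytosolic thioredoxin reductase, stood at 114 and 45.9 CPM and then at 282 and 341 (log2 1.96, edgeR adjusted p 7.93e-05). Map2k3, a kinase upstream of p38, stood at 44.8 and 45.9 CPM and then at 175 and 171 (log2 1.96, edgeR adjusted p 9.66e-04, DESeq2 adjusted p 0.0997). For all 3 the lower KO library was over 2 times the higher WT library. Tnfrsf12a, the receptor of TWEAK, rose from 129 and 126 to 423 and 248 CPM (log2 1.43, edgeR adjusted p 0.00160), and its call was lost without KO library 1 (1.00, adjusted p 0.276). Cstb, an inhibitor of cathepsins, had a log2 fold change of 0.89. Cd83, an activation marker, had 0.86 and Top1, a topoisomerase, 0.62. Mcl1, an inhibitor of apoptosis, had 0.53. Each of these 4 lost its call without at least 3 of the 4 libraries in turn, with edgeR adjusted p of 0.0517 to 0.391. Ifi207 had 0.72, and its call was lost without WT library 2 (0.0787) or KO library 2 (0.105). Ftl1, the ferritin light chain, rose from 8625 and 8253 to 10806 and 10309 CPM (0.37) as the only called gene of 9 measured for iron and haem. Its call was lost without WT library 2 (0.104) and without KO library 1 (0.0564).

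Immediate-early and heat shock genes respond within minutes to stimulation and to tissue dissociation. All 13 of the list were measured, 4 were called lower in the KO and 0 higher, and 2 of the 13 had a positive fold change. Egr1, a zinc-finger factor, stood at 1587 and 1079 CPM in WT libraries and 649 and 682 in KO libraries (log2 -0.96, SE 0.164, edgeR adjusted p 2.25e-04, and 0.0803 without WT library 1). Fos, a subunit of AP-1, stood at 3004 and 2382 and then at 1545 and 1804 (-0.64, edgeR adjusted p 0.00101). Without WT library 1 its adjusted p was 0.111, and without KO library 1 it was 0.0506. The heat shock protein 70 genes Hspa1a and Hspa1b fell by 0.70 and 0.87. Hspa1a went from 2597 and 2003 to 1297 and 1448 CPM, with an edgeR adjusted p of 0.0969 without WT library 1. Hspa1a and Hspa1b are near-identical copies, so the split of reads between them is uncertain. Btg2, an antiproliferative gene of the same response, was outside the list. It stood at 1408 and 1274 CPM and then at 558 and 651 (-1.10, SE 0.155, edgeR adjusted p 7.56e-06). Tissue of all groups went through a warm enzyme digestion, per the labels' protocols, and its part in these genes was not tested. Jun and Dusp1 were lower in both KO libraries and missed the threshold (-0.32, adjusted p 0.0658, and -0.42, adjusted p 0.115).

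Of 15 listed genes of scavenging and endocytosis 11 were measured, Stab1 was called lower and 0 were called higher, with 7 of the 11 positive and a median of 0.06 log2. Folr2 stood at 234 and 218 CPM in WT libraries and 237 and 233 in KO libraries, and Cd36 at 269 and 413 and then at 479 and 491 (log2 0.57, edgeR adjusted p 0.311). Stab1, which clears oxidised lipoproteins and matrix fragments, stood at 1184 and 1320 CPM in WT libraries and 649 and 677 in KO libraries. The WT libraries lay close together, as did those of the KO (log2 -0.87, SE 0.153, edgeR adjusted p 3.53e-04). It was detected in 49 of 55 and 49 of 52 WT and in 45 of 57 and 48 of 67 KO macrophages. Mgl2, a lectin for galactose sugars, fell from 373 and 316 to 118 and 212 CPM (-1.0, edgeR adjusted p 0.0460). Ms4a6c, a membrane protein of macrophages, fell from 1055 and 1245 to 615 and 838 (-0.61, edgeR adjusted p 0.0460). The call of Mgl2 was lost without WT library 1 (adjusted p 0.278), WT library 2 (0.0505) or KO library 1 (0.600), and that of Ms4a6c without WT library 2 (0.385) or KO library 1 (0.630). Sla, an adaptor that dampens receptor signalling, fell from 164 and 149 to 50.8 and 46.5 CPM (-1.63, edgeR adjusted p 0.0106), and its call was lost without KO library 1 (0.0746) or KO library 2 (0.155). Lyz2 fell from 7790 and 8012 to 5973 and 5144 CPM (-0.46, SE 0.0879, edgeR adjusted p 0.00101).

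Of the 12 border macrophage genes, 11 were measured, 2 were called lower and 0 higher, and 3 of the 11 had a positive fold change. Their median was -0.33 log2. Cd163 (567 and 591 CPM, then 338 and 465), Lyve1 (597 and 666, then 423 and 491) and Cbr2, a carbonyl reductase (428 and 528, then 400 and 331), were each below both WT libraries in both KO libraries without passing the test (edgeR adjusted p 0.380, 0.415 and 0.633). General macrophage identity genes gave 0 calls among 14 measured, with a median of -0.14. Complement genes gave 0 among 8, lysosomal genes 0 among 14, and lipid genes 0 among 9. Genes of laminin binding and adhesion gave 0 among 7, with Itgb1, the common beta chain of laminin-binding integrins, at 174 and 201 CPM in WT libraries and 164 and 186 in KO libraries. For these sets the share expected from all genes, 1.1%, comes to less than 1 gene each.

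**Figure D2:**
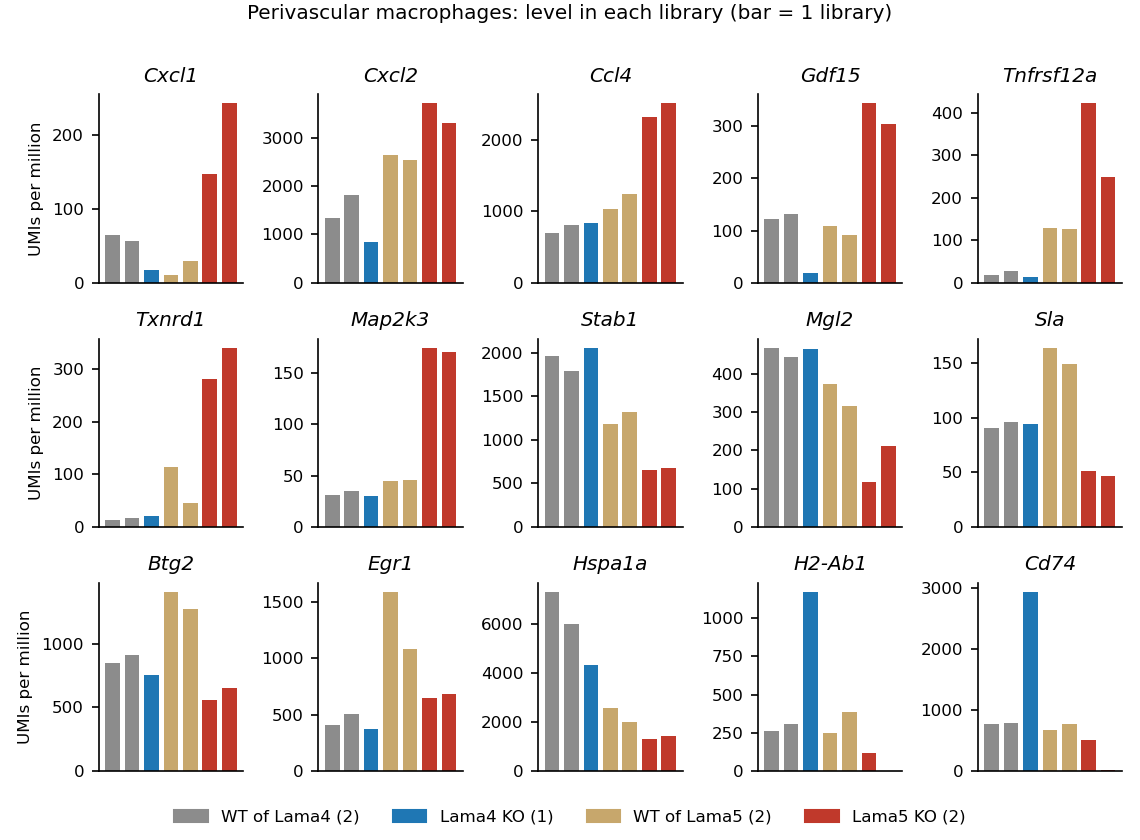
Level of 15 genes in perivascular macrophages, in CPM on linear axes from 0, each bar 1 library: WT of Lama4 (grey), Lama4 KO (blue), WT of Lama5 (tan) and Lama5 KO (red). The 7 genes from Cxcl1 to Map2k3 are higher in both red bars than in both tan bars, and the other 8 lower.

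Among calls without signs of free RNA, the 3 largest falls were in MHC class II genes, and few cells carried them. H2-Ab1, the beta chain of I-A, stood at 249 and 385 CPM in WT libraries and at 118 and 0 in KO libraries (log2 -2.40, SE 0.437, edgeR adjusted p 5.42e-04). H2-Aa, its alpha chain, stood at 239 and 235 and then at 135 and 5.17 (-1.75, edgeR adjusted p 0.0232). H2-Eb1, the beta chain of I-E, stood at 199 and 293 and then at 147 and 0 (-1.73, edgeR adjusted p 0.0460). Cd74, the invariant chain, stood at 676 and 763 and then at 508 and 20.7 (-1.43, edgeR adjusted p 0.0365). All 67 UMIs of H2-Ab1 in WT library 2 came from 1 macrophage, as did 25 of the 50 UMIs in WT library 1 and 18 of 21 in KO library 1. DESeq2 called none of the 4 genes (adjusted p 0.997 for each). Without KO library 2 the adjusted p was 0.641 for H2-Aa, 0.731 for H2-Eb1 and 0.733 for Cd74. As shares of macrophages with at least 20 per 10000 of H2-Aa, H2-Ab1 and H2-Eb1, the WT libraries had 2 of 55 (3.64%, 0.443% to 12.5%) and 1 of 52 (1.92%, 0.0487% to 10.3%). The KO libraries had 1 of 57 (1.75%, 0.0444% to 9.39%) and 0 of 67. A count of 0 allows a share of up to 4.48% when read as 3 counts of 67, and up to 5.36% by the exact binomial interval. The difference of -1.90 percentage points was within these intervals and was not detectable at this depth (two-sided exact permutation p = 0.333, the smallest possible).

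Other differences came with signs of RNA from outside the macrophages. Of the 33 called genes, 5 stood at under 1/3 of their level in another cell type: Hbb-bs, Cyr61, Id2, Ccl4 and Ttr. Hbb-bs, a haemoglobin chain, was lower in the KO (264 and 189 CPM against 33.8 and 36.2) in macrophages and in microglia. Ttr was at 0 in both WT libraries and had 22 and 23 UMIs in the KO, and it was likewise near 0 in WT endothelial cells (0.412 and 0.155 CPM) and at 77.9 and 68.5 in those of the KO. Gm42418, a locus that overlaps ribosomal RNA repeats, took 3.00% and 2.99% of macrophage UMIs in WT libraries against 6.30% and 6.44% in KO libraries (log2 1.14), and its share of microglial UMIs moved likewise, from 2.28% and 2.18% to 4.08% and 4.40%. The part of these signals in the other results was not tested. Without Gm42418, AY036118 and mitochondrial genes, 29 of the 33 calls remained.

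The next comparison set the macrophages beside microglia of the same libraries, the other macrophage of the brain, to see which of these changes they shared. In microglia 1197 of 9901 genes (12.1%) passed the same test, in sums of many more cells. Of the 33 genes called in macrophages, 29 were tested in microglia, 21 of these were called in the same direction, 7 were not called and 1, Cxcl2, was called in the opposite direction. Among those shared were Txnrd1 (0.97 in microglia), Map2k3 (0.88), Gdf15 (0.69), Tnfrsf12a (0.95), Hspa1a (-0.71), Btg2 (-0.60), Egr1 (-0.32) and Stab1 (-0.36). A test of the difference between both effects, with a block for the library, called 10 of 9187 genes (0.109%), 7 with the higher effect in macrophages and 3 with the lower. It called none of the 8 genes just named, with adjusted p of 0.292 to 1.

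Cxcl2 had the clearest difference. It stood at 2543 to 3717 CPM in macrophages, where it rose, and fell in microglia from 124 and 70.9 CPM to 34.9 and 35.9 (log2 -1.40), a difference of 1.91 (SE 0.183, edgeR adjusted p 3.94e-12). The microglial levels of Cxcl2 were under 1/3 of those in macrophages, and the part of RNA released from macrophages in that fall was not tested. Ccl4 rose by 1.14 in macrophages and by 0.10 in microglia, a difference of 1.09 (SE 0.147, adjusted p 8.88e-07). These 2 differences held under every alternative run for them. Ccl4 was marked as possible free RNA of microglia, as above. The macrophage with the most Ccl4 UMIs in each library held 41 of 208 and 31 of 217 in the WT, and 85 of 412 and 167 of 485 in the KO. Nfkbia and Tnfaip3, inhibitors of NF-kB that are also its targets, fell in microglia by 0.75 and 0.57. In macrophages Nfkbia stood at 1736 and 1796 CPM and then at 1878 and 1380, and Tnfaip3 at 105 and 97.6 and then at 197 and 171, neither called. The differences were 0.72 (edgeR adjusted p 0.00840) and 1.53 (edgeR adjusted p 0.00840). Cd83 rose in macrophages and was not called in microglia (-0.07), a difference of 0.98 (edgeR adjusted p 0.0179). Rasgef1b, an exchange factor for Rap proteins, had a difference of 1.20 (edgeR adjusted p 0.0291). Cxcl10, an interferon-induced ligand of CXCR3, had 2.50 (edgeR adjusted p 0.00840). Its macrophage values were 14.9 and 45.9 CPM in WT libraries and 147 and 41.4 in KO libraries, which overlap, and 22 of the 26 UMIs in KO library 1 came from 1 cell. The call of Cxcl10 was lost without the library block (2.50, edgeR adjusted p 0.110), and with mixed droplets, which held markers of a further cell type, left out (1.39, edgeR adjusted p 0.898). That of Cd83 was also lost without mixed droplets (0.82, edgeR adjusted p 0.152). Microglia held Cxcl10 at 129 to 273 CPM.

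In the other direction, Ccl7 stood at 1507 and 1205 and then 925 and 1029 CPM in macrophages. In microglia it rose from 10.5 and 19.1 to 38.4 and 23.0 CPM (1.17), a difference of -1.52 (edgeR adjusted p 0.00275). These microglial levels were under 1/3 of those in macrophages, and the part of RNA released from macrophages was not tested. Cd44, a hyaluronan receptor, stood at 9.95 and 40.2 CPM in the WT macrophages and at 0 in both KO libraries, under 1/3 of its level in neutrophils, and no fold is given (edgeR adjusted p 0.0394). Calls other than Cxcl2 and Ccl4 depended on single libraries. Without KO library 1, the other 8 of the 10 calls were lost, with adjusted p values that included 0.078 for Rasgef1b, 0.186 for Tnfaip3, 0.448 for Ccl7, 0.555 for Cd83, 0.925 for Nfkbia, 0.403 for Cd44 and 1 for Cxcl10. Without WT library 1, Ccl7 (0.604), Cxcl10 (0.325) and Rasgef1b (0.652) were among those lost. Without WT library 2, Cd44 (0.760), Cd83 (0.186) and Tnfaip3 (0.127) were lost, and without KO library 2, Cd44 (0.532) and Rasgef1b (0.371).

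**Figure D3:**
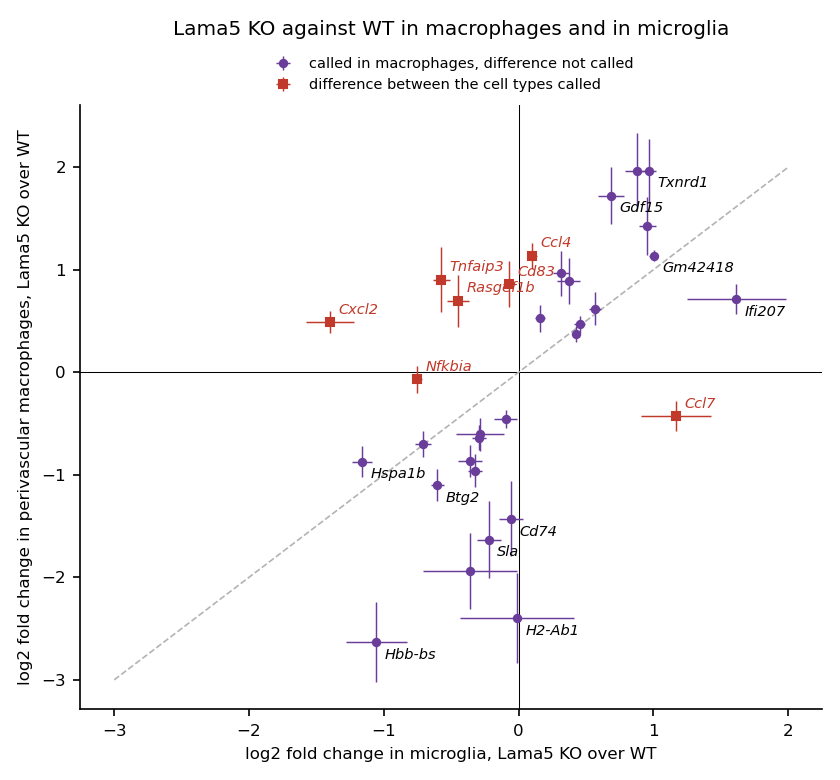
Log2 fold change of the Lama5 KO over its WT in perivascular macrophages (vertical) against that in microglia (horizontal), with standard errors, for genes called in macrophages (purple circles) and for genes whose difference between the cell types was called (red squares). The dashed line marks equal effects. Most circles share a sign with microglia, and Cxcl2, Tnfaip3, Rasgef1b and Cd83 lie in the upper left and Ccl7 in the lower right; Ttr, Cd44, 1 gene not reported here and genes not tested in both are left out.

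The third comparison concerned the loss of Lama4. With 1 distinct KO library it has no replicate check and no test. Genes were named by size: at least 2-fold against each WT library, Poisson 95% intervals that overlapped with neither, and at least 50 CPM on 1 side. Of 3315 genes at that level, 41 were higher (1.24%) and 15 lower (0.452%) in the KO library. Of these 56, 31 stood at under 1/3 of their level in another cell type, most often choroid plexus (9 genes), mural cells (8) or oligodendrocytes (6). After leaving these out, 13 were higher and 12 lower. With mixed droplets left out, 35 genes were past the rule. The median log2 ratio of all genes was 0.00.

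MHC class II genes stood higher in the Lama4 KO library. H2-Aa was at 268 and 261 CPM in WT libraries and 1122 (exact Poisson 95% interval 1042 to 1208) in the KO library, H2-Ab1 at 259 and 307 and then 1173, H2-Eb1 at 314 and 262 and then 1207, Cd74 at 771 and 792 and then 2933, and H2-DMa, a peptide loader, at 62.2 and 58.0 and then 204. The log2 ratios were 2.08, 2.05, 2.07, 1.91 and 1.75. Of 6 listed MHC class II genes measured, 5 were past the rule. Among macrophages at 40 or more per 10000 of the rule's genes, H2-Aa (1.47) and H2-Ab1 (1.65) were no longer past it. With mixed droplets left out the ratios of H2-Aa, H2-Ab1, H2-Eb1 and Cd74 were 3.18, 3.15, 3.21 and 2.84. The signal lay in a subset. Macrophages at 20 per 10000 or more of the 3 surface chains numbered 4 of 135 (2.96%, 0.813% to 7.41%) and 5 of 139 (3.60%, 1.18% to 8.19%) in WT libraries and 16 of 114 (14.0%, 8.24% to 21.8%) in the KO library, a difference of 10.8 percentage points. The KO interval lay above both WT intervals. These cover counting error only. Among macrophages at 40 or more per 10000 of the rule's genes, the share differed by 5.61 points. The class is a range of a sum, with 3 KO macrophages and 0 and 2 WT macrophages at 10 to 20. Thinned to 1500 UMIs per cell, which left out 6, 7 and 7 shallower cells, the shares were 3.1%, 3.79% and 15.9%. Microglia of the same libraries also held more in the KO, so the rise was not particular to the macrophages. H2-Aa had 20 and 13 UMIs in 1545 and 1513 WT microglia and 733 UMIs in 1358 KO microglia. Cd74 had 350 and 326 UMIs in the WT microglia and 2707 in those of the KO.

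The MHC class II-rich macrophages of all libraries, 29 in number, differed in other genes, given here without a test because the cells were chosen by their expression. Lyve1 stood at 301 CPM in them and 796 in the other 590, Cd209f at 201 and 617, Ms4a7 at 572 and 1133, and Stab1 at 949 and 1739. Axl, a receptor for dying cells, stood at 196 and 34.4 CPM and Ccr2, the monocyte chemokine receptor, at 110 and 20.6. These pooled values hide differences between groups. Axl stood at 310 and 27.7 CPM in the WT of Lama4 but at 103 and 62.2 in the Lama4 KO. Folr2 stood at 496 and 375 and then at 234 and 394. Ccr2 had 9 UMIs in 3 of the 9 MHC-rich cells of that WT and 12 in 2 of the 16 of that KO. Itgax and Flt3, genes of dendritic cells, had 0 UMIs in the 29 cells. Itgax was at 0 in all members and Flt3 had 1 UMI in the other macrophages of the WT of Lama4, so these zeros do not set the 29 apart. Cd209a stood at 5.02 CPM in the 29, beside 125 CPM in the other macrophages of the WT of Lama4 and 134 in those of the Lama4 KO. Csf1r, the receptor of the macrophage growth factor, and the complement gene C1qa were detected in all 29. The 1 such cell of the Lama5 KO had 1 UMI of each and 0 of Pf4. In the Lama4 KO, Ccl8, a CC chemokine of border macrophages, stood at 3205 CPM in the 16 MHC-rich cells and 509 in the other 98. In the WT of Lama4 Ccl8 stood at 756 CPM in the 9 MHC-rich cells and 184 in the other 265, so it was higher in the KO on both sides of this cut. Over all members Ccl8 was at 266 and 165 CPM in WT libraries and 961 (886 to 1040) in the KO library, a log2 ratio of 2.19, with 188 of its 613 UMIs in 1 cell. An alternative added after seeing the data left out macrophages at 10 per 10000 or more of the MHC class II sum. This lower cut also removes the 3 KO macrophages at 10 to 20, and the ratio of Ccl8 was then -0.24. Choroid plexus transcripts were present in these cells too. Ttr was detected in all 16 MHC-rich KO macrophages, at 1177 CPM, and 2 of the 16 were among the 29 KO macrophages at 20 per 10000 or more of the choroid plexus list. Their part in the result was not tested.

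**Figure D4:**
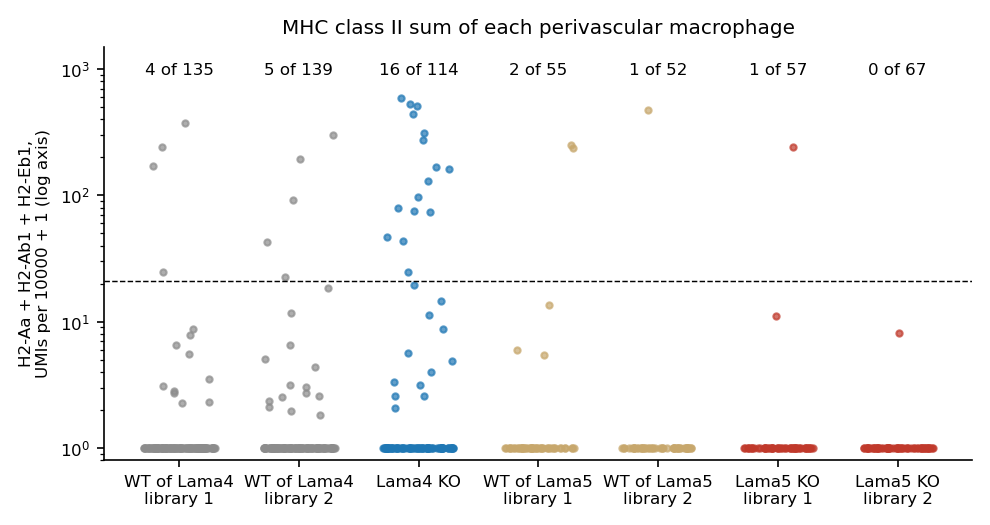
Sum of H2-Aa, H2-Ab1 and H2-Eb1 in each of the 619 perivascular macrophages, in UMIs per 10000 plus 1 on a log axis, by library, with the number at 20 or more above the dashed line. The Lama4 KO library has 16 of 114 above the line, and each other library at most 5.

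Of 13 listed chemokines, Ccl8 was past the rule upward and Cxcl1 and Cxcl10 downward in the Lama4 KO library, 5 of the 13 had a positive ratio and the median was -0.33. Lif, a cytokine of the interleukin 6 family, was at 97.2 and 37.1 CPM in WT libraries and 7.84 (2.54 to 18.3) in the KO library, from 5 UMIs. Cxcl1 was at 64.8 and 56.8 and then 17.2 (8.61 to 30.9), a log2 ratio of -1.76, in 6 of 135, 12 of 139 and 3 of 114 macrophages. Cxcl10 was at 161 and 85.8 and then 42.3, and Osm, oncostatin M, at 127 and 132 and then 58.0, under 1/3 of its level in neutrophils. Gpr183, a receptor for oxysterols, was at 636 and 401 and then 196 (163 to 233), a log2 ratio of -1.36, in 91 of 135, 94 of 139 and 55 of 114 macrophages. Bag3, a cochaperone, was at 94.6 and 94.0 and then 18.8, and Rela, the p65 subunit of NF-kB, at 59.6 and 62.6 and then 26.7. Pet100, Safb, mt-Atp8 and Pole4 completed the 10 largest falls among genes not marked as possible free RNA, with log2 ratios of -1.62 to -1.15. With mixed droplets left out, Lif (-2.08), Cxcl10 (-1.63) and Gpr183 (-1.16) were no longer past the rule. Against WT library 2 alone Lif was not past it either (-2.11). With MHC class II-rich macrophages left out, Cxcl10 (-0.66), Rela (-1.11) and Pole4 (-1.15) were not past it. With the cut on the rule's genes raised to 40, neither were Cxcl10 (-1.25), Osm (-0.98), Safb (-1.14), Rela (-1.06) and Pole4 (-1.17). Rela was also lost with stricter limits on the cells (-1.10), and Cxcl10 with a pseudocount of 5 CPM (-1.37). Rela had 46 and 54 UMIs in WT libraries and 17 in the KO library. Bag3, Cxcl1, Pet100 and mt-Atp8 stayed past the rule under every alternative run for them. Of marked genes, Crip1, a small LIM protein, had -1.32 and Gdf15 -2.69. Gdf15 was at 122 and 132 and then 18.8 CPM (9.72 to 32.9), and stood at under 1/3 of its level in microglia. All 13 immediate-early and heat shock genes had a ratio below 0, none past the rule, with a median of -0.31.

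Several of the remaining rises of that library came from single cells. Of 2283 UMIs of Hbb-bs, 2270 were in 1 macrophage, and without it the level was 20.7 CPM, below the 109 and 99.4 CPM of the WT libraries without their own highest cell. Further, all 46 UMIs of Tcf21, a factor of mesenchymal cells, were in 1, and 68 of the 72 UMIs of the long non-coding RNA Snhg11 were in 1. Spp1, osteopontin, had 38 UMIs in 5 cells against 11 and 1 in the WT. Border macrophage genes gave 0 of 11 past the rule, with a median log2 ratio of -0.02, and macrophage identity genes 0 of 14 with -0.03. Of the 12 lysosomal genes with a positive ratio among 14, none was past the rule.

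**Figure D5:**
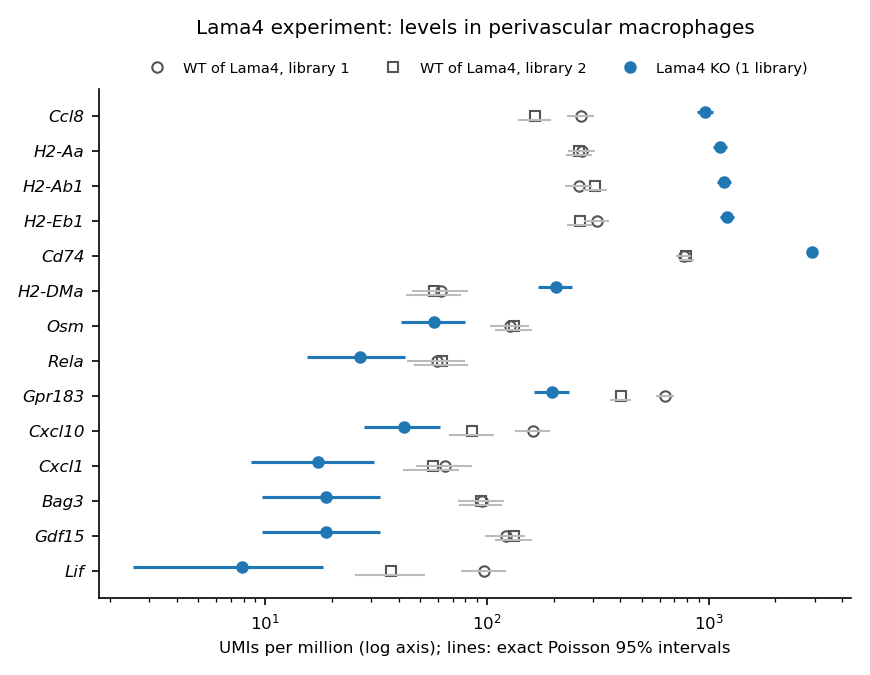
Levels of 14 genes in perivascular macrophages of the Lama4 experiment, in CPM on a log axis with exact Poisson 95% intervals for counting error, for both WT libraries (open symbols) and the KO library (blue). The 6 upper genes, Ccl8 and MHC class II genes, lie above both WT libraries and the 8 lower genes, from Osm to Lif, below.

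To give the size of differences between pools of WT mice, the same test was run between the WT libraries of both experiments, which differ in pool and experiment at once. It called 523 of 6077 genes (8.61%), 336 higher (5.53%) and 187 lower (3.08%) in the WT of Lama5, against 33 of 3012 (1.1%) in the Lama5 KO with its WT. These counts were not made at like depth. The sums of the WT of Lama4 held 771680 and 862041 UMIs, and those of the Lama5 experiment 174233 to 201039. DESeq2 called 221 between the WT pools. Genes of the knockout comparisons were among the 523. Hspa1b fell by 1.75 and Hspa1a by 1.52, while Egr1 rose by 1.56, Fosb by 1.71 and Tnf by 1.80. Cxcl2 rose by 0.73 and Cxcl1 fell by 1.68, and Cxcl10 fell by 2.04 and Tcim, a small regulator of cell growth, by 2.45. Hbegf, a growth factor of the EGF family, rose by 2.70. AY036118 rose by 3.71, Mylip by 3.30, Nabp1 by 3.27, Slc5a3 by 3.04 and Gm26532 by 3.03, and Cd209g and Gm10076 fell by 2.08 and 1.99. Of 12 border macrophage genes, 5 were called lower, Cd209f (-1.33), Folr2 (-0.74), Stab1 (-0.58), Clec10a (-0.58) and Lyve1 (-0.45), and Maf, a factor of their identity, higher (0.60). Of 12 interferon genes 4 were called lower and 0 higher, with a median of -1.01. None of the 6 MHC class II genes measured was called, with a median of -0.19. Pool and experiment differ together in these values and cannot be told apart, so levels were compared with each knockout's own WT only. Each knockout and its own WT were also separate pools of brains, so genotype and pool cannot be told apart in those comparisons either.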

How the data were processed

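Single cells of brain cortex were profiled with 10x Genomics chemistry, and UMI counts per gene and barcode were deposited as unnormalised counts made with Cell Ranger 3.1.0, per the file headers. The genome mm10 and Seurat 3.1 are named per the submitters' processing notes; their role is not given in the sources used here. Both Lama4-/- samples held identical counts and were used as 1 library. Counts of the members were summed per library (174233 to 862041 UMIs) and tested with edgeR 4.0.16 (filterByExpr, TMM scaling, quasi-likelihood test, Benjamini-Hochberg adjustment, threshold 0.05) in R 4.3.3. The comparison with microglia fitted library, cell type and the KO effect in each cell type. DESeq2 1.42.0 was an alternative. CPM values are unscaled, and fold changes come from the fit, which shifts log2 values by -0.06. The Lama4 KO was described by size with a pseudocount of 1 CPM. Shares used exact binomial 95% intervals (scipy 1.17.1). A macrophage level under 1/3 of that in any other cell type was marked as possible free RNA, and microglial levels were not marked. No doublet caller was run: the limits on endothelial, microglial and neutrophil genes removed mixtures with those cells, and an alternative left out further mixed droplets. The code was tested on simulated data. Genes named by rule are, each way, the 12 largest changes among calls at 50 CPM or more whose libraries did not overlap and that were not marked as possible free RNA (5 for the WT pools and the difference test, 10 for Lama4), and called members of lists. Others named, such as Ccl4, Cxcl10 and Cd44 in the difference test, were chosen after their values were seen. Members and lists were chosen with earlier results of these data known. Replicate numbers did not pair libraries (correlation of deviations -0.0008 for Lama5 and 0.133 for the WT pools, with 2 pairs each). Some genes are not reported here.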

Additional observations from a re-analysis of the deposited data

Results flagged for a closer look

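Several genes lay on opposite sides in the knockouts: both Lama5 KO libraries lay on one side of both their WT libraries and the Lama4 KO library on the other side of both of its own. This held for 31 of 59 results followed in both. The genes among them were followed largely because they changed in a knockout, and no share over all genes is given beside the count. The count is thus no measure of how far the knockouts oppose each other. The difference between the knockouts was not tested, since the Lama4 KO has 1 library. In the Lama5 KO the log2 values were 3.39 for Cxcl1, 1.72 for Gdf15 and 0.49 for Cxcl2, which were called, beside Lama4 KO ratios of -1.76, -2.69 and -0.90, the last not past the rule of size. Gpr183 (0.51), Osm (0.74), Bag3 (0.27), Pet100 (0.81) and mt-Atp8 (0.54) were not called in the Lama5 KO, and had -1.36, -1.15, -2.27, -1.62 and -1.30 in the Lama4 KO. In the other sense, H2-Ab1 had -2.40, H2-Aa -1.75, H2-Eb1 -1.73 and Cd74 -1.43 in the Lama5 KO, all called, beside 2.05, 2.08, 2.07 and 1.91 in the Lama4 KO. Spp1 had -3.02, not called and from 4 and 15 UMIs in 2 WT cells each, beside 3.40. The haemoglobin genes Hbb-bs, Hba-a2, Hbb-bt and Hba-a1 had -2.63, -2.72, -2.43 and -1.65, beside 5.03, 4.44, 4.28 and 4.48. The Lama4 KO values of these 4 genes rest on 1 macrophage, which held 2270 of 2283 UMIs of Hbb-bs, and without it their ratios were below 0, on the same side as in the Lama5 KO.

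Values of Osm, Spp1, Hba-a1, Hba-a2 and Hbb-bt are plain ratios of CPM, without a fit. Opposite sides were also found for 12 genes that were not past the rule of size in the Lama4 KO, some of them near 0 there. Map2k3 had 1.96 in the Lama5 KO and -0.14 in the Lama4 KO, Tnfrsf12a 1.43 and -0.74, Gm42418 1.14 and -0.07, Cstb 0.89 and -0.45, Cd83 0.86 and -0.26, Ifi207 0.72 and -0.17, Top1 0.62 and -0.31, Mcl1 0.53 and -0.29, and Ftl1 0.37 and -0.09. Stab1 had -0.87 and 0.13, Lyz2 -0.46 and 0.17, and Ms4a7, a gene of the rule that was not called, -0.18 and 0.18. The share of macrophages among kept cells differed by 0.107 points for Lama5 and -0.381 for Lama4. The share of MHC class II-rich macrophages differed by -1.90 points and 10.8 points.

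Within the Lama5 experiment, 10 genes had a KO effect in macrophages that differed from that in microglia by the edgeR test of the difference, with an adjusted p under 0.05. The log2 differences reported here were 2.50 for Cxcl10, 1.91 for Cxcl2, 1.53 for Tnfaip3, 1.20 for Rasgef1b, 1.09 for Ccl4, 0.98 for Cd83 and 0.72 for Nfkbia, and -1.52 for Ccl7. The value of Cxcl10 was 1.39 with mixed droplets left out and did not pass (edgeR adjusted p 0.898). The fitted value of Cd44, -10.82, rests on KO libraries at 0 and gives no fold.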

How the results depend on the processing

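With 2 libraries from 1 pool of brains per group and few macrophages in each, counts of calls moved with the method, and genes carried by single cells are the least certain. DESeq2 called 17 genes for Lama5 and 221 between WT pools. A replicate block gave 39 and 498, and was not used: libraries of the same number had a correlation of deviations of -0.0008 for Lama5 and 0.133 between WT pools, with 2 pairs each, and the labels give the numbers no shared source. Leaving out each library in turn gave 23 to 40 calls for Lama5, 377 to 518 between WT pools and 8 to 15 in the difference from microglia. It gave share differences of 0.0574 to 0.157 points for Lama5 and -0.478 to -0.284 for Lama4, and MHC class II-rich share differences of -2.78 to -1.03 and 10.4 to 11.1 points. As a share of macrophages plus microglia the Lama5 difference was -2.60 points. The Lama4 rule gave 103 genes against WT library 1 alone and 105 against library 2 alone, a weaker demand by construction. With mixed droplets left out it gave 35 genes, with Meg3 at -1.33 and Snhg11 at -0.35, and the share difference was -0.908. Another alternative, chosen after seeing the data, left out members at 10 or more per 10000 of MHC class II. The log2 ratios were then -0.24 for Ccl8, -0.42 for Cd74, -0.38 for H2-Aa and -0.84 for H2-Ab1. H2-Eb1 (2.09) and H2-DMa (0.59) stayed above 0 but were not past the rule. The cells left out were picked by H2-Aa, H2-Ab1 and H2-Eb1 themselves. Without the macrophage that holds most of the gene's UMIs, also chosen after seeing the data, the log2 ratios were -2.27 for Hbb-bs, -1.57 for Hbb-bt, -1.22 for Hba-a1 and -3.90 for Hba-a2, the last with the KO at 0. The cause of the other changes was not tested. Of single-gene values under all alternatives, 299 for Lama5 kept their side of the threshold and 70 lost it, and 94 kept it and 25 lost it in the difference from microglia.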

Other observations

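Apoe, the lipid carrier, was abundant in these macrophages and close between libraries. It stood at 50567 to 61647 CPM in the 7 libraries, beside 477 to 1238 CPM in microglia.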
